A study of Mus musculus with 8 samples.

Results

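The CC chemokine genes described here are Ccl2, Ccl3, Ccl4, Ccl5, Ccl6, Ccl7, Ccl9, Ccl12, Ccl17 and Ccl22 of the mouse, 10 of the 47937 genes counted. They were chosen as a gene family and found by symbol through their Ensembl identifiers, with no threshold on a measured value. The choice was made with earlier results of these data known. Of 13 further CC chemokine genes, which are given at the end, 9 had under 10 counts in every library. All 10 passed the filter on low counts in every comparison. Ccl12 had no more than 128 counts in any library, and between the genotypes after LPS it passed only through the knockout libraries described below. CC chemokines are small secreted proteins that bind G protein-coupled receptors on leukocytes and direct their migration. CCL2, CCL7 and CCL12 are ligands of CCR2 and attract monocytes. CCL3, CCL4 and CCL5 attract monocytes, T cells and NK cells, CCL6 and CCL9 are ligands of CCR1, and CCL17 and CCL22 bind CCR4 on T cells and are typical products of dendritic cells (DCs). Lipopolysaccharide (LPS), a component of Gram-negative bacteria that is sensed by TLR4, induces many of these genes through NF-kB and interferon signaling.

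RNA was sequenced from bone marrow-derived dendritic cells (BMDCs), which were grown from mouse bone marrow with 20 ng/ml GM-CSF for 8 to 9 days. The 4 groups were untreated WT, untreated Grk 3xKO, WT treated for 24 h with 20 ng/ml LPS and Grk 3xKO treated in the same way, with GM-CSF present in all groups and 2 libraries in each. Grk 3xKO (3xGrk-/-) cells lack the G protein-coupled receptor kinases GRK2, GRK3 and GRK6: they carry Grk2 fl/fl and Grk6 fl/fl alleles deleted by Vav1-iCre, which is active throughout the hematopoietic lineage, together with a constitutive Grk3-/- allele, whereas WT controls were Cre-negative, all from adult mice on a C57BL6/J background. The comparisons address whether the chemokine program of these cells differs between the genotypes and whether LPS changes it in the same way. The methods of the study describe technical replicates, so that the p-values below may measure technical spread only. An exact permutation test of 2 against 2 libraries cannot go below p = 0.333, and the tests given are therefore those of a model fitted across all genes.

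The libraries held 4713305 to 6933358 counted reads. The targeted genes were lower in the knockout: Grk2 was at 320 and 321 CPM (read counts scaled to a common library size with TMM factors) in untreated WT against 151 and 146 CPM in untreated 3xGrk-/- cells, and at 677 and 736 CPM against 199 and 184 CPM after LPS. Grk6 fell by 1.19 and 1.54 on the log2 scale without and with LPS, and Grk3 by 0.36 and 0.42. The source of the reads that remained for these genes was not tested. The paper reports an almost complete loss of the kinases by immunoblot. H2-Aa and Cd74, listed here as DC markers, were present in all libraries. According to the study, GM-CSF cultures also hold macrophage-like cells that carry MHC class II, so that these genes do not tell DCs from such cells. Fewer cells of a type and less RNA per cell cannot be told apart in these bulk samples. The summed level of 13 DC markers was 27898 to 28033 CPM in untreated WT and 15825 to 16081 CPM in untreated 3xGrk-/- libraries, and that of 13 monocyte and macrophage markers 2513 to 2536 CPM and 9019 to 9063 CPM. A few genes, singled out after their values were seen, held most of these differences. The MHC class II group (H2-Aa, H2-Ab1, H2-Eb1 and Cd74) summed to 22852 to 23125 CPM in untreated WT and 10318 to 10579 CPM in untreated 3xGrk-/- libraries, while the sum of the other 9 DC markers, of which 4 were called higher and 4 lower, was 4908 to 5046 CPM and 5502 to 5507 CPM. Of all genes tested, 22.1% were called higher and 22.7% lower between the untreated genotypes. Without Lyz2 the monocyte and macrophage sum was 1181 to 1206 CPM and 1926 to 1995 CPM, and C1qa, C1qb, C1qc and Fcgr1 were lower in the untreated knockout. After LPS the DC sums were 22417 to 24533 CPM in WT and 17196 to 17571 CPM in 3xGrk-/- libraries (10259 to 11020 CPM and 6728 to 6919 CPM without the MHC class II group), and the monocyte and macrophage sums 845 to 868 CPM and 7661 to 7775 CPM. The library of replicate 2 of LPS-treated 3xGrk-/- cells held 149727 reads of Gm42418, which overlaps ribosomal RNA, against 17470 to 41199 in the other libraries.

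The 10 genes lie in 3 clusters (GRCm38, GENCODE M21 coordinates). Ccl2 (chr11:82035571-82037453), Ccl7 (chr11:82045712-82047525) and Ccl12 (chr11:82101845-82103400) share the plus strand of a stretch of 67.83 kb, with Ccl11 between them at 0 counts in all libraries. Ccl5 (chr11:83525778-83530518), Ccl9 (chr11:83572919-83578636), Ccl6 (chr11:83587882-83593087) and Ccl3 (chr11:83647844-83649355) are on the minus strand and Ccl4 (chr11:83662584-83664683) on the plus strand of a stretch of 138.9 kb. Ccl22 (chr8:94745590-94751699) and Ccl17 (chr8:94810453-94812036) are on the plus strand, 66.45 kb from end to end, with the chemokine gene Cx3cl1 between them. The noncoding gene E230016K23Rik overlaps Ccl6 on the other strand, with at most 74 counts in a library against 2448 or more for Ccl6.

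The sequences before the start of the annotated transcripts are shown for a pair from each of 2 clusters, Ccl22 and Ccl17, and Ccl9 and Ccl6. They are RefSeq promoter windows on GRCm38.p6, 5′ to 3′ on the strand of the gene, with matches to any of 5 motifs in capitals. The windows are chr8:94745434-94745589 (plus strand) for Ccl22, which is cut to the 156 bases before the GENCODE start, chr8:94810203-94810452 (plus strand) for Ccl17, chr11:83578637-83578886 (minus strand) for Ccl9 and chr11:83593088-83593337 (minus strand) for Ccl6.
Ccl22: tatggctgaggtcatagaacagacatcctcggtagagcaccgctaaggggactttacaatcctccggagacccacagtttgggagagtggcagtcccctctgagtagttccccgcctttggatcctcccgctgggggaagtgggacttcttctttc
Ccl17: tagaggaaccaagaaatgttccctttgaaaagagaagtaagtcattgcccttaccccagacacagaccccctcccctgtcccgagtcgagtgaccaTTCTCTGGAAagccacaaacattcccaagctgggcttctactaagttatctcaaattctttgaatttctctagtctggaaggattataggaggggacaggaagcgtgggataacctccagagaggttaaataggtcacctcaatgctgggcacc
Ccl9: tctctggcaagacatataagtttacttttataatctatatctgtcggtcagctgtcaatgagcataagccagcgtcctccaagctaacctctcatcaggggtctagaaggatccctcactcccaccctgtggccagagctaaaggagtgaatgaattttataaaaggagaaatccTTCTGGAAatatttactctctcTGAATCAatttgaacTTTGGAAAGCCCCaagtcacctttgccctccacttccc
Ccl6: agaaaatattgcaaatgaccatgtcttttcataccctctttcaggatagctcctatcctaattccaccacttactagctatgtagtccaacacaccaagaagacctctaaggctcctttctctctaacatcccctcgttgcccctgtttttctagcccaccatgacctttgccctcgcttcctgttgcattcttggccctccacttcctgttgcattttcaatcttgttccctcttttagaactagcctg

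The motifs were searched on both strands in the windows of the 6 members that the RefSeq table holds (Ccl3, Ccl6, Ccl9, Ccl12, Ccl17 and Ccl22). In Ccl17 the capitals mark a STAT6 motif (TTC and GAA with 4 bases of any kind between them), which starts 154 bases before the RefSeq transcript start and occurs in 6.95% of all 32851 windows of 300 bases. In Ccl9 they mark, from left to right, a C/EBP motif (TTNNGNAA, in 40.7% of windows) at −75, an AP-1 motif (TGANTCA, 7.81%) at −53, and a run at −38 in which a further C/EBP motif overlaps an NF-kB consensus (8.46%) on the opposite strand. Ccl3 held a C/EBP match at −100. No letters matching these motifs or the core of the interferon-stimulated response element (GAAA on either side of 2 bases of any kind, 3.44% of windows) stood in the windows of Ccl6, Ccl12 or Ccl22. The search covered all 300 bases of a window, of which only those before the transcript start are shown. A relation between these matches and the levels of the genes was not tested.

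The 10 genes together took 1.08% of all reads in both untreated WT libraries, 1.70% and 1.69% in untreated 3xGrk-/- libraries, 3.10% and 3.24% in LPS-treated WT libraries and 1.91% and 1.89% in LPS-treated 3xGrk-/- libraries. Most of these reads came from Ccl22. Ranked among all genes by read count, Ccl22 was at rank 6 in both untreated WT libraries and at rank 1 in both LPS-treated WT libraries. In the knockout it was at rank 2 in both untreated libraries and at ranks 2 and 3 after LPS. Ccl2, which ranked 7038 and 7415 in untreated WT, ranked 98 and 92 in LPS-treated 3xGrk-/- cells.

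**Figure D1:**
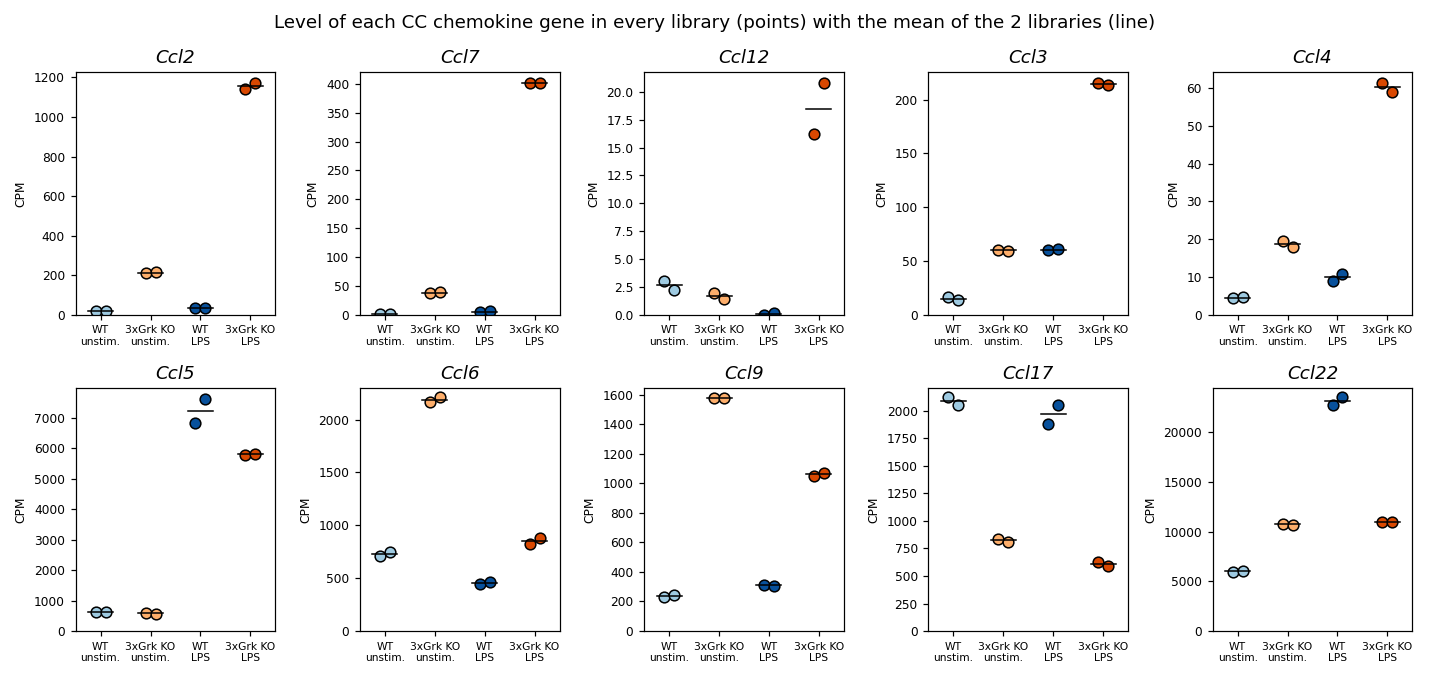
Level of each of the 10 genes in the 8 libraries, in CPM scaled with TMM factors over all libraries, on linear axes from 0. Points are libraries and lines the mean of the 2 libraries of a group. Ccl2 and Ccl7 stand highest in LPS-treated 3xGrk-/- cells (1141 and 1171 CPM for Ccl2), Ccl6 and Ccl9 in untreated 3xGrk-/- cells, and Ccl5 and Ccl22 in LPS-treated WT cells.

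Per kilobase of exon, the order of the genes differed between the groups. In untreated WT cells Ccl17 led with 4071 ± 101 RPKM (CPM per kilobase of exon; SD, n = 2), followed by Ccl22 with 2591 ± 34.7 RPKM and Ccl5 with 654 ± 6.06 RPKM. In untreated 3xGrk-/- cells Ccl22 led with 4621 ± 27.1 RPKM, before Ccl17 with 1602 ± 42.6 RPKM and Ccl6 with 1218 ± 18.0 RPKM. After LPS the WT order was Ccl22 (9968 ± 247 RPKM), Ccl5 (7519 ± 580 RPKM) and Ccl17 (3826 ± 236 RPKM), whereas the knockout order was Ccl5 (6033 ± 39.6 RPKM), Ccl22 (4739 ± 8.12 RPKM), Ccl17 (1184 ± 46.9 RPKM) and Ccl2 (1016 ± 18.1 RPKM). The libraries of neighbors in these orders overlapped in none of the 4 groups. The lowest place went to Ccl7 in untreated WT cells (2.71 ± 0.124 RPKM) and to Ccl12 in the other 3 groups. Ccl17 alone accounted for 52.5% and 51.2% of the reads per kilobase of the 10 genes in untreated WT libraries, 18.2% and 17.7% in untreated 3xGrk-/- libraries, 17.4% and 17.7% in LPS-treated WT libraries and 8.30% and 7.81% in LPS-treated 3xGrk-/- libraries. The CCR2 ligands Ccl2 and Ccl7 had 0.221% and 0.0332% in replicate 1 of untreated WT cells and 6.84% and 3.41% in replicate 1 of LPS-treated 3xGrk-/- cells.

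**Figure D2:**
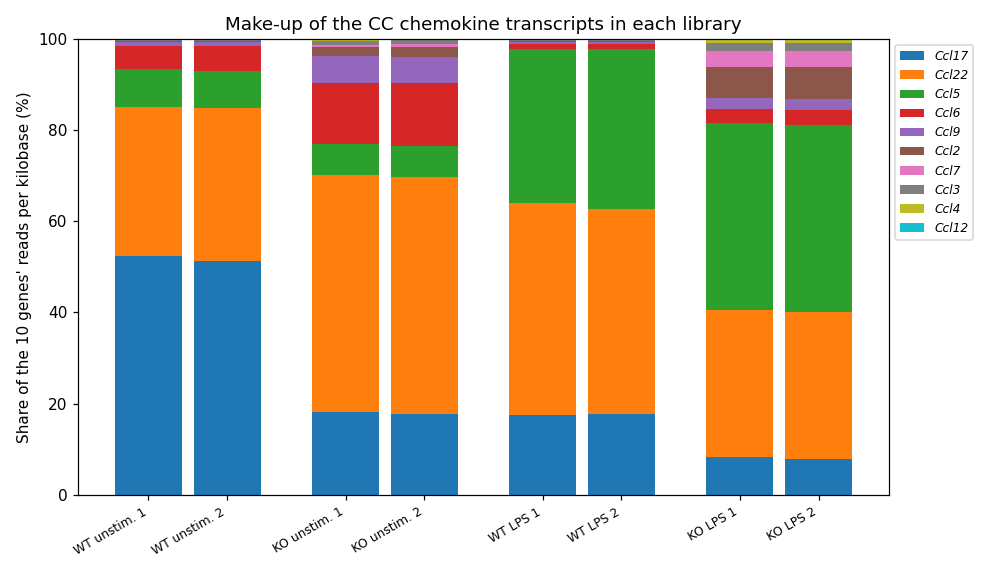
Share of each gene in the reads per kilobase of exon of the 10 genes, in percent, for each of the 8 libraries (KO, 3xGrk-/-). Each bar adds up to 100. Ccl17 takes the largest share in untreated WT, Ccl22 in untreated 3xGrk-/- and LPS-treated WT and Ccl5 in LPS-treated 3xGrk-/- libraries, where Ccl2 and Ccl7 form visible bands.

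In untreated cells 7 of the 10 genes were higher in 3xGrk-/- than in WT libraries (Ccl2, Ccl3, Ccl4, Ccl6, Ccl7, Ccl9 and Ccl22) and 2 were lower (Ccl5 and Ccl17) at an adjusted p under 0.05, while Ccl12 did not pass. Of all 12000 genes tested, 22.1% were called higher and 22.7% lower in this comparison. With LPS 7 genes were higher (Ccl2, Ccl3, Ccl4, Ccl6, Ccl7, Ccl9 and Ccl12) and 3 lower (Ccl5, Ccl17 and Ccl22), against 24.7% higher and 24% lower of all 11830 genes tested. Ccl12 passed the filter in this comparison only through the 3xGrk-/- libraries. The median log2 fold change of the 10 genes was 1.80 in both comparisons, against a median near 0 over all genes (−0.00168 and −0.00663), and it is the same with Ccl12 at the bound given below. The 10 genes were chosen with earlier results of these data known, so that their median is a description only. Without TMM scaling, by library size alone, 35.8% rather than 49.3% of all calls were higher in untreated cells and 40.9% rather than 50.7% after LPS, with medians over all genes of −0.0863 and −0.0944, and no member changed its call. The difference between the genotypes itself changed with LPS for 8 of the 10 genes: it moved upward for Ccl2, Ccl7 and Ccl12 and downward for Ccl5, Ccl6, Ccl9, Ccl17 and Ccl22. Of all 12541 genes tested for this interaction, 16.5% moved upward and 16% downward. Ccl3 and Ccl4 did not pass the interaction test. With the biological coefficient of variation fixed at 0.4 in place of the spread estimated from these libraries, the genotype calls of Ccl2, Ccl3, Ccl4, Ccl7 and Ccl9 in both comparisons and of Ccl12 with LPS held, and those of Ccl5, Ccl6, Ccl17 and Ccl22 did not (adjusted p = 0.0619 or more). Of the 8 interactions only that of Ccl12 held at 0.4, the adjusted p of the others being 0.758 or more.

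**Figure D3:**
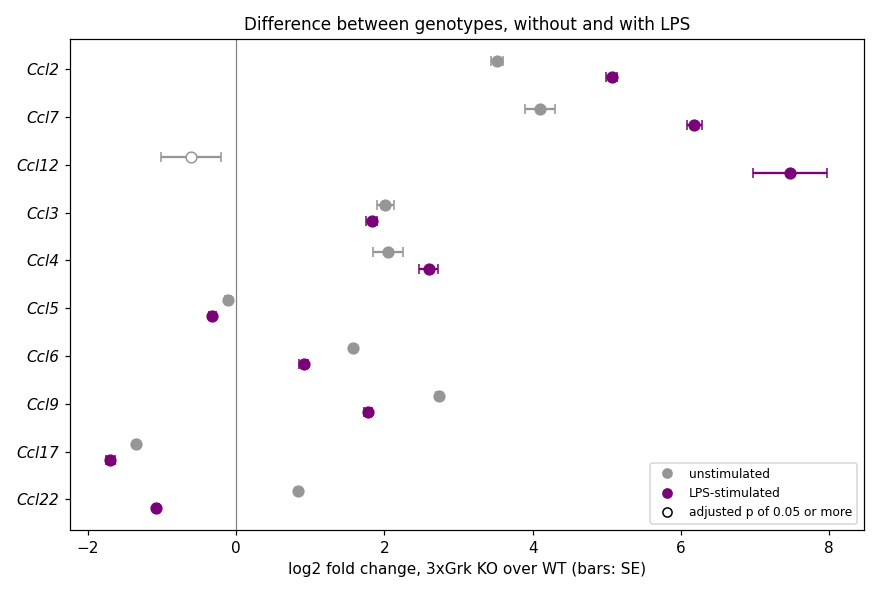
Log2 fold change of each gene in 3xGrk-/- over WT cells without LPS (grey) and with LPS (purple), from edgeR fits of 4 libraries each. Bars are standard errors and open points did not pass an adjusted p of 0.05, which holds for Ccl12 without LPS (−0.61). Ccl22 lies on opposite sides of 0 (0.83 and −1.07), and the value of Ccl12 with LPS (7.47) rests on WT libraries with 0 and 1 counts.

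Among the CCR2 ligands, Ccl2 was at 19.9 and 17.5 CPM in untreated WT and 212 and 214 CPM in untreated 3xGrk-/- libraries, and at 32.7 and 36.2 CPM in LPS-treated WT and 1141 and 1171 CPM in LPS-treated 3xGrk-/- libraries. Ccl7 was at 2.1 and 2.24 CPM in untreated WT, 36.9 and 38.7 CPM in untreated 3xGrk-/-, 5.26 and 5.72 CPM in LPS-treated WT and 401 CPM in both LPS-treated 3xGrk-/- libraries. For both genes the untreated knockout libraries lay above the LPS-treated WT libraries. Ccl2 was 11.5-fold higher in 3xGrk-/- than in WT cells without LPS (log2 fold change 3.52 ± 0.0788 SE, adjusted p too small to be represented) and 33.5-fold higher with LPS (5.06 ± 0.0748, adjusted p = 1.75e-21). Ccl7 was 17.2-fold higher without LPS (4.10 ± 0.198, adjusted p = 3.24e-93) and 72.4-fold higher with LPS (6.18 ± 0.101, adjusted p = 8.38e-21), the largest difference among the members apart from Ccl12. The widening with LPS was 1.54 ± 0.115 on the log2 scale for Ccl2 (adjusted p = 1.47e-11) and 2.08 ± 0.312 for Ccl7 (adjusted p = 5.26e-06).

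Ccl12 was a low gene that was higher in the LPS-treated knockout. It had 16 and 16 counts in untreated WT, 13 and 8 in untreated 3xGrk-/-, 0 and 1 in LPS-treated WT and 89 and 128 in LPS-treated 3xGrk-/- libraries. Set against a floor of 3 counts per library, it was at least 36.6-fold higher in 3xGrk-/- than in WT cells after LPS (adjusted p = 3.19e-11). In that comparison Ccl12 passed the filter on low counts only through the 3xGrk-/- libraries, so that this p-value is a description only. Its untreated values of 3.06 and 2.24 CPM in WT against 1.94 and 1.39 CPM in 3xGrk-/- libraries did not pass the test (log2 fold change −0.61, 95% interval −1.40 to 0.18, adjusted p = 0.215). Stromal markers moved with the same group of libraries. The sum of 6 such markers was 1.53 to 2.80 CPM in untreated WT, 2.26 to 2.54 CPM in untreated 3xGrk-/-, 13.5 to 23.0 CPM in LPS-treated WT and 138 to 148 CPM in LPS-treated 3xGrk-/- libraries. After LPS 4 of the 6 were higher and 1 lower in the knockout, against 24.7% and 24% of all genes tested. Most of the sum was Dcn at 127 and 113 CPM, with Col1a1 at 4.0 and 5.67 CPM, in LPS-treated 3xGrk-/- libraries. Dcn and Lum were at 0 counts in every untreated library. The part of stromal markers in the values of Ccl2, Ccl7 and Ccl12 was not tested.

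Ccl3 and Ccl4, which encode MIP-1α and MIP-1β, were higher in the knockout with and without LPS. Ccl3 was at 16.2 and 13.7 CPM in untreated WT, 60.6 and 59.0 CPM in untreated 3xGrk-/-, 59.9 and 60.8 CPM in LPS-treated WT and 216 and 214 CPM in LPS-treated 3xGrk-/- libraries. The untreated knockout and the LPS-treated WT libraries of Ccl3 thus overlapped, whereas the other groups stood apart. Ccl4 was at 4.39 and 4.62 CPM in untreated WT, 19.4 and 18.1 CPM in untreated 3xGrk-/-, 9.07 and 10.7 CPM in LPS-treated WT and 61.4 and 59.0 CPM in LPS-treated 3xGrk-/- libraries, with no overlap between groups. The difference between the genotypes was 2.01 ± 0.115 without and 1.83 ± 0.0744 with LPS on the log2 scale for Ccl3 (adjusted p = 5.60e-67 and 1.42e-14) and 2.05 ± 0.197 and 2.60 ± 0.130 for Ccl4 (adjusted p = 3.59e-24 and 4.28e-13). The interaction was −0.18 for Ccl3 (95% interval −0.44 to 0.08, adjusted p = 0.320) and 0.55 for Ccl4 (0.06 to 1.04, adjusted p = 0.1003). The intervals, unlike the p-values, are not adjusted for multiple testing.

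Ccl5 (RANTES) was at 632 and 623 CPM in untreated WT and 589 and 573 CPM in untreated 3xGrk-/- libraries. After LPS it was at 6825 and 7612 CPM in WT and 5765 and 5819 CPM in 3xGrk-/- libraries. Of the members called in both comparisons it differed least between the genotypes. The log2 difference of −0.11 ± 0.0376 in untreated cells had an adjusted p of 0.00869, and the one of −0.32 ± 0.0486 after LPS had an adjusted p of 1.32e-05. The untreated call did not hold without replicate 1 of WT (adjusted p = 0.0592), without replicate 2 of 3xGrk-/- cells (0.121), without a filter on low counts (0.0635) or with DESeq2 (0.156). The interaction of −0.21 (adjusted p = 0.00893) did not hold without replicate 1 of untreated 3xGrk-/- cells (adjusted p = 0.0594) and was −0.13 without replicate 2 of LPS-treated WT cells. With a biological coefficient of variation fixed at 0.1 none of these 3 calls of Ccl5 held, the adjusted p being 0.676 in untreated cells, 0.0708 after LPS and 0.588 for the interaction.

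The CCR1 ligands Ccl6 and Ccl9 were highest in untreated knockout cells. Ccl6 was at 714 and 744 CPM in untreated WT, 2164 and 2210 CPM in untreated 3xGrk-/-, 444 and 462 CPM in LPS-treated WT and 826 and 884 CPM in LPS-treated 3xGrk-/- libraries. Ccl9 was at 228 and 245 CPM, 1576 and 1575 CPM, 311 and 306 CPM, and 1051 and 1071 CPM in the same order. All 4 groups of both genes stood apart from each other. Ccl6 was 3.00-fold higher in the knockout without LPS (log2 fold change 1.58 ± 0.0320) and 1.89-fold higher with LPS (0.92 ± 0.0591, adjusted p = 3.40e-11), and Ccl9 was 6.65-fold higher (2.73 ± 0.0379) and 3.44-fold higher (1.78 ± 0.0582, adjusted p = 3.57e-16). The untreated adjusted p of both genes was too small to be represented. The narrowing with LPS was −0.67 ± 0.0658 for Ccl6 (adjusted p = 3.47e-09) and −0.95 ± 0.0682 for Ccl9 (adjusted p = 5.79e-12). Monocyte and macrophage markers, whose sums are given above, moved with the genotype as well. Without LPS 8 of 13 were higher and 4 lower, against 22.1% and 22.7% of all genes tested. With LPS 12 of 13 were higher, against 24.7% of all genes tested. Lyz2 was at 1306 and 1355 CPM in untreated WT and 7068 and 7093 CPM in untreated 3xGrk-/- libraries. The part of these markers in the values of Ccl6, Ccl9 and the other members was not tested.

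The CCR4 ligands Ccl17 and Ccl22 lie in the same cluster and went in opposite directions in untreated knockout cells. Ccl17 was at 2129 and 2056 CPM in untreated WT and 839 and 808 CPM in untreated 3xGrk-/- libraries, and at 1881 and 2052 CPM in LPS-treated WT and 626 and 592 CPM in LPS-treated 3xGrk-/- libraries. Ccl22 was at 5966 and 6080 CPM in untreated WT and 10789 and 10700 CPM in untreated 3xGrk-/- libraries, and at 22768 and 23582 CPM in LPS-treated WT and 11004 and 11030 CPM in LPS-treated 3xGrk-/- libraries. Every knockout library thus lay below every WT library for Ccl17, while the knockout libraries of Ccl22 lay above the untreated and below the LPS-treated WT libraries. Ccl17 was 2.54-fold lower in the knockout without LPS (log2 fold change −1.35 ± 0.0317, adjusted p too small to be represented) and 3.23-fold lower with LPS (−1.69 ± 0.0578, adjusted p = 7.60e-16). Ccl22 was 1.78-fold higher without LPS (0.83 ± 0.0208, adjusted p too small to be represented) and 2.105-fold lower with LPS (−1.07 ± 0.0385, adjusted p = 1.63e-15). With the biological coefficient of variation fixed at 0.4 no genotype call of either gene held (adjusted p = 0.317 without and 0.0619 with LPS for Ccl17, and 0.9999 and 0.471 for Ccl22). The interaction was −1.91 ± 0.0415 for Ccl22 (adjusted p = 4.35e-23) and −0.35 ± 0.0666 for Ccl17 (adjusted p = 0.000149), the latter not holding with the coefficient fixed at 0.1 (adjusted p = 0.279). Of the 13 DC markers, 8 were lower and 4 higher in the untreated knockout and 11 lower and 2 higher in the LPS-treated knockout. For this and the following marker lists, the shares of all genes tested were 22.7% lower and 22.1% higher without LPS. With LPS they were 24% lower and 24.7% higher. Of 5 eosinophil markers 4 were lower in the untreated knockout (905 to 961 CPM summed in WT and 54.0 to 57.6 CPM in 3xGrk-/- libraries) and all 5 in the LPS-treated knockout (896 to 966 CPM and 36.2 to 42.4 CPM). Of 10 neutrophil markers 6 were lower and Mmp8 higher in the untreated knockout, and of 9 tested after LPS 7 were lower and Mmp8 again higher. Without Mmp8 the neutrophil sum was 717 to 763 CPM in WT and 528 to 544 CPM in 3xGrk-/- libraries without LPS and 336 to 390.4 CPM and 185 to 203 CPM with LPS. With Mmp8, singled out after its values were seen, the sums were 823 to 866 CPM, 1271 to 1301 CPM, 361 to 416 CPM and 547 to 570 CPM in the same order. The part of these cell types in the values of Ccl17 and Ccl22 was not tested. Cx3cl1, the gene between them, had a log2 fold change between the genotypes of −0.03 without and −1.17 with LPS.

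LPS itself raised 7 of the 10 genes in WT cells (Ccl2, Ccl3, Ccl4, Ccl5, Ccl7, Ccl9 and Ccl22) and lowered 2 (Ccl6 and Ccl12), against 29.5% and 30.8% of all genes tested. In 3xGrk-/- cells it raised 6 (Ccl2, Ccl3, Ccl4, Ccl5, Ccl7 and Ccl12), against 28% of all genes, and lowered 3 (Ccl6, Ccl9 and Ccl17), against 27.4%. With the biological coefficient of variation fixed at 0.4, the WT calls of Ccl2, Ccl4, Ccl6, Ccl7 and Ccl9 did not hold. The same was true of Ccl4, Ccl6, Ccl9 and Ccl17 in 3xGrk-/- cells. By library size alone 31.1% rather than 49.0% of all calls were higher in WT and 30.2% rather than 50.5% in 3xGrk-/- cells, with medians over all genes of −0.23 in both. As a description, the median log2 response of the 10 genes was 1.01 in WT and 1.76 in 3xGrk-/- cells, against −0.0148 and −0.00723 over all genes. These responses share their libraries with the comparisons of the genotypes and are not independent of them.

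**Figure D4:**
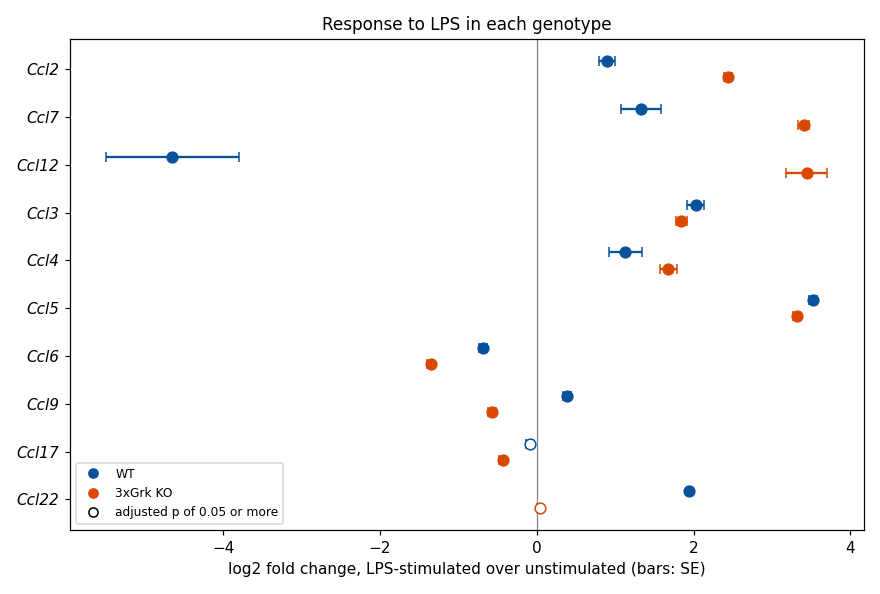
Log2 fold change of each gene with LPS over without LPS in WT (blue) and 3xGrk-/- cells (orange), from 1 edgeR fit of all 8 libraries. Bars are standard errors and open points did not pass an adjusted p of 0.05 (Ccl17 in WT, −0.09, and Ccl22 in 3xGrk-/- cells, 0.04). Ccl9 and Ccl12 lie on opposite sides of 0 in the genotypes, and the value of Ccl12 in WT rests on LPS-treated libraries with 0 and 1 counts.

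Ccl5 had the strongest rise in WT cells, 11.5-fold (log2 fold change 3.52 ± 0.0467, adjusted p = 7.75e-29), and rose 9.97-fold in 3xGrk-/- cells (3.32 ± 0.0463, adjusted p = 6.24e-29). Ccl2 rose 1.86-fold in WT (adjusted p = 6.34e-09) and 5.42-fold in 3xGrk-/- cells (adjusted p = 2.15e-24), and Ccl7 rose 2.51-fold (adjusted p = 6.56e-05) and 10.6-fold (adjusted p = 2.87e-25). Ccl12 fell in WT cells, being at least 5.25-fold higher without LPS against the floor of 3 counts (adjusted p = 1.14e-05), and rose 10.9-fold in 3xGrk-/- cells (adjusted p = 4.74e-12). Ccl9 rose 1.30-fold in WT (adjusted p = 1.78e-07), but in 3xGrk-/- cells it had a log2 response of −0.57 (adjusted p = 1.72e-11). Ccl6 had responses of −0.69 and −1.35 (adjusted p = 4.69e-13 and 5.69e-20). Ccl22 rose 3.85-fold in WT cells (adjusted p = 9.92e-28), whereas in 3xGrk-/- cells its response was 0.04 with a 95% interval of −0.02 to 0.09 (adjusted p = 0.303). By library size alone the latter was −0.18 (adjusted p = 7.59e-06), which lies above the median of −0.23 of all genes under that scaling. Ccl17 fell by 0.44 in 3xGrk-/- cells (adjusted p = 8.29e-09) and had a response of −0.09 in WT cells (95% interval −0.18 to 0.00171, adjusted p = 0.0992), which was −0.023 without replicate 1 of LPS-treated WT cells (adjusted p = 0.655) and passed without replicate 2 (−0.15, adjusted p = 0.00155), by library size alone (−0.30), without the filter on low counts (−0.10) and with at least 10 counts in every library (−0.12). Ccl3 rose 4.07-fold in WT and 3.58-fold in 3xGrk-/- cells and Ccl4 2.19-fold and 3.20-fold.

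Ratios of counts within a library, which do not depend on scaling, showed the same shifts between genes of a cluster. Ccl22 had 2.80 and 2.96 reads for each read of Ccl17 in untreated WT, 12.9 and 13.2 in untreated 3xGrk-/-, 12.1 and 11.5 in LPS-treated WT and 17.6 and 18.6 in LPS-treated 3xGrk-/- libraries. Ccl6 had 3.14 and 3.03 reads for each read of Ccl9 in untreated WT but 0.786 and 0.826 in LPS-treated 3xGrk-/- libraries, with values of 1.37 to 1.51 in the other groups. Ccl2 had 9.45 and 7.81 reads for each read of Ccl7 in untreated WT, 5.75 and 5.52 in untreated 3xGrk-/-, 6.21 and 6.32 in LPS-treated WT and 2.85 and 2.92 in LPS-treated 3xGrk-/- libraries. The Ccl2 to Ccl7 ratio was thus lowest where both genes were highest. For Ccl3 and Ccl4 the ratio was 6.60 and 5.70 in LPS-treated WT and 2.97 to 3.70 in all other libraries.

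For each member, the gene with the most similar pattern over the 8 libraries was sought among 9142 genes (9143 for Ccl12), as the smallest root-mean-square difference of mean-centered log2 CPM. Ccl7 had Ccl2 as its closest gene (0.522, in a range of 7.37 for Ccl7 itself), and the closest to Ccl2 was Pmp22 (0.319, range 6.04), followed by Ptges (0.465). Ccl22 was closest to Bcl2l1 (0.0955, range 1.98) and Ece1 (0.129), Ccl17 to Napsa (0.131, range 1.85) and Fam53b (0.160), and Ccl5 to Slamf1 (0.193, range 3.73) and Agrn (0.238). Ccl6 was closest to Car4 (0.131, range 2.31) and Itga1 (0.183), Ccl9 to Plaur (0.243, range 2.79) and Rhob (0.264), Ccl4 to Aoah (0.148, range 3.71) and C3ar1 (0.174), and Ccl3 to Ly6i (0.200, range 3.94) and Ch25h (0.202). Ccl12 had no close match, Plxnb2 being nearest at 0.846 in a range of 5.997. Apart from Ccl2 and Ccl7, no member was among the 2 closest genes of another.

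Of 13 further CC chemokine genes, 9 had under 10 counts in every library, among them Ccl11, Ccl19, Ccl20 and the near-identical copies Ccl21a and Ccl21b at 0. Ccl8 (MCP-2) had 0 counts in all untreated libraries, 2 and 0 in LPS-treated WT and 41 and 56 in LPS-treated 3xGrk-/- libraries, at least 16.4-fold higher in the knockout after LPS (adjusted p = 3.03e-08). Ccl24 (eotaxin-2) had 1 and 2 counts in LPS-treated WT and 38 and 45 in LPS-treated 3xGrk-/- libraries, at least 14.1-fold higher (adjusted p = 3.99e-08). Like Ccl12 after LPS, Ccl8 and Ccl24 passed the filter in this comparison only through the 3xGrk-/- libraries, where they are high. Their p-values and this likeness, at low levels, are a description only. Ccl1 had 5 and 2 counts in untreated WT and 12 and 15 in untreated 3xGrk-/- libraries (adjusted p = 0.00162) and 0 after LPS in all libraries, and Ccl25 passed none of the tests.

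Among 9 listed CC chemokine receptors 6 could be tested, of which 5 were higher and 1 lower in untreated 3xGrk-/- cells and 3 higher and 2 lower after LPS. The shares of all genes tested were 22.1% higher and 22.7% lower in untreated cells, and 24.7% and 24% after LPS. Ccr1, the receptor of CCL6 and CCL9, was at 89.6 and 98.7 CPM in untreated WT and 194 and 196 CPM in untreated 3xGrk-/- libraries, and at 32.3 and 32.2 CPM against 343 and 363 CPM after LPS (log2 fold change 3.45, adjusted p = 9.29e-19). Ccr1 was thus higher in the knockout after LPS, as were its ligands Ccl6 and Ccl9. Its difference between the genotypes widened with LPS (interaction 2.41, adjusted p = 3.96e-17), whereas those of Ccl6 and Ccl9 narrowed (−0.67 and −0.95). Ccr2 was at 115 and 112 CPM in untreated WT and 121 and 132 CPM in untreated 3xGrk-/- libraries (log2 fold change 0.15, adjusted p = 0.0245) and at 2.0 and 3.09 CPM in WT against 9.09 and 6.49 CPM in 3xGrk-/- libraries after LPS (log2 fold change 1.57, adjusted p = 0.000207). Ccr4 was at 0.764 and 0.420 CPM in untreated WT and 3.29 and 4.17 CPM in untreated 3xGrk-/- libraries (adjusted p = 1.19e-07) and at 29.3 to 37.9 CPM after LPS, where the genotypes did not pass the test (log2 fold change −0.25, adjusted p = 0.0861).

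Of 16 regulators that act on such genes, transcription factors of the NF-kB, IRF, STAT and C/EBP families with Spi1 and the mRNA-decay factor Zfp36, 8 were higher and 1 lower in untreated 3xGrk-/- cells, and 6 were higher and 5 lower after LPS. Of all genes tested, 22.1% were higher and 22.7% lower in untreated cells, and 24.7% and 24% after LPS. Cebpb had the largest difference, at 26.6 and 12.2 CPM in untreated WT against 95.1 and 109 CPM in untreated 3xGrk-/- libraries and at 18.9 and 22.3 CPM against 205 and 146 CPM after LPS (log2 fold change 2.47 and 3.08, adjusted p = 9.48e-143 and 7.10e-14). Irf8, Nfkb1 and Rel changed sides with LPS as Ccl22 did: Irf8 had a difference of 0.82 without and −0.59 with LPS (adjusted p = 1.62e-84 and 7.56e-09), Nfkb1 of 0.42 and −0.22 (adjusted p = 1.01e-27 and 0.00203) and Rel of 0.17 and −0.22 (adjusted p = 4.20e-05 and 0.0093). The switch was not particular to these regulators, as the DC markers Fscn1 (0.47 and −1.04) and Ccr7 (0.24 and −0.32) showed it too. Irf4, a factor of DC differentiation, was lower in the knockout in both comparisons as Ccl17 was (−0.59 and −1.26, adjusted p = 6.01e-41 and 3.38e-13). Stat6 had differences of 0.07 and −0.38 (adjusted p = 0.204 and 2.92e-05). These values are set beside the chemokine values as a description, and a relation between them was not tested.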

How the data were processed

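RNA of BMDCs from 8 libraries, 2 for each combination of genotype and LPS treatment, was sequenced by the authors after phenol-chloroform extraction and TruSeq stranded mRNA preparation. According to the study's methods, reads were aligned to mm10 with STAR and counted on genes with featureCounts in the snakePipes workflow. The annotation release and strand setting are not given in the sources used here, so that reads of genes on opposite strands may not be separated. The values deposited by the authors are unnormalized read counts for each gene, in a table of the untreated and a table of the LPS-treated libraries. Totals were 4713305 to 6933358 with a median of 6228400, and statements on genes with a few counts are limited by counting error.

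Gene symbols, coordinates and exon lengths came from GENCODE M21 on GRCm38 (47310 of 47937 identifiers matched without the version number). Groups and replicate numbers came from the sample labels. Genes were filtered with filterByExpr, scaled with TMM factors and tested with the quasi-likelihood test of edgeR 4.0.16 (limma 3.58.1, R 4.3.3), with p-values adjusted by Benjamini-Hochberg across the genes tested and called under 0.05. The genotypes were compared within each table (12000 and 11830 genes), and the responses to LPS and the interaction in 1 fit of all 8 libraries (12541 genes). Whether both tables come from the same sequencing run is not given in the sources used here, so that run and LPS treatment cannot be told apart. Levels are CPM with TMM factors over all 8 libraries, and RPKM divides them by the merged exon length. Standard errors were derived from the F statistic. Floors were set at 3 counts per library. The scripts were tested on simulated data. All members and the genes listed beside them (further CC chemokines, receptors, regulators, targeted genes and cell type markers) were named as fixed lists, and nearest patterns used genes whose mean log2 CPM (prior count 2) reached 3. One gene of the receptor list is not reported here and was left out of its counts. The members and lists were chosen with earlier results of these data known.

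Alternatives were DESeq2 1.42.0, RLE factors, library size alone, 2 other filters, a fold threshold, fixed biological coefficients of variation, 1 fit of all libraries for the genotypes, the replicate number as a block and leaving out each library. Within groups, libraries differed beyond counting error (chi-square per gene 1.59, 1.74, 3.07 and 9.02 over genes with at least 20 counts), so none was treated as a copy.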

Additional observations from a re-analysis of the deposited data

Results flagged for a closer look

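For 8 of the 10 genes the difference between 3xGrk-/- and WT cells was not the same with and without LPS, by the edgeR test of the interaction. Of all 12541 genes tested, 16.5% moved upward and 16% downward. On the log2 scale the genotype difference with LPS exceeded that without LPS by 8.09 ± 0.795 (SE) for Ccl12 (adjusted p = 1.62e-09), by 2.08 ± 0.312 for Ccl7 (5.26e-06) and by 1.54 ± 0.115 for Ccl2 (1.47e-11). The value of Ccl12 is fitted on WT libraries with 0 and 1 counts after LPS and is no bound, being 7.34 without replicate 1 and 10.4 without replicate 2 of LPS-treated WT cells. The change was −1.91 ± 0.0415 for Ccl22 (adjusted p = 4.35e-23), −0.95 ± 0.0682 for Ccl9 (5.79e-12), −0.67 ± 0.0658 for Ccl6 (3.47e-09), −0.35 ± 0.0666 for Ccl17 (0.000149) and −0.21 ± 0.0604 for Ccl5 (0.00893). Among these, Ccl22 was called in opposite directions without and with LPS. With the biological coefficient of variation fixed at 0.4 neither of these calls held, and of the interactions only that of Ccl12 did. All groups had 2 libraries, so that no group was checked for single libraries standing apart.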

How the results depend on the processing

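Of the values of single members, 734 of 785 kept direction and side of the threshold under the alternatives, 46 lost and 4 gained the threshold, and 1 reversed: the LPS response of Ccl22 in 3xGrk-/- cells by library size alone (−0.18, against a median of −0.23 of all genes). Ccl12 has no value where at least 10 counts in every library were required. Genes called numbered 5369 between untreated genotypes (DESeq2 2831, a log2 fold change of at least 1 1444, a fixed biological coefficient of variation of 0.1 2905 and of 0.4 448), 5754 between LPS-treated genotypes (3663 with DESeq2, 1984 with the fold threshold and 782 with 0.4), 4070 for the interaction (2450, 1375, 2161 with 0.1 and 72 with 0.4), 7561 for LPS in WT (2700 with the fold threshold and 1110 with 0.4) and 6945 for LPS in 3xGrk-/- cells (2373 and 850). The 2 untreated members called lower became 1 with DESeq2, without a filter, with the fold threshold and with 0.1, and 0 with 0.4. They were 1 to 2 when a library was left out, Ccl5 being lost without replicate 1 of WT or replicate 2 of 3xGrk-/- cells. With 0.4, the 7 members higher without LPS became 5 and the 7 higher with LPS 6, and the 2 and 3 lower became 0 and 0, the lost genes being Ccl5, Ccl6, Ccl17 and Ccl22. The 3 and 5 members of the interaction became 1 (Ccl12) and 0. In the WT response 7 higher became 3 (Ccl2, Ccl4, Ccl7 and Ccl9 lost) and 2 lower 1 (Ccl6 lost), and in the knockout response 6 higher became 5 (Ccl4 lost) and 3 lower 0. The fold threshold took Ccl5 and Ccl22 from the calls without and Ccl5 and Ccl6 from those with LPS, left 1 of the 5 lower in the interaction (Ccl22), took Ccl2 and Ccl9 from the 7 higher and Ccl6 from the 2 lower in the WT response (5 and 1 left), and left 1 of the 3 lower in the knockout response (Ccl6). With 0.1, Ccl5 was lost between the genotypes with and without LPS, and Ccl5 and Ccl17 from the interaction (3 of the 5 left). For the fixed coefficients and the fold threshold the assumed spread or size sets the loss. For DESeq2 and the filter the cause was not tested. Replicate numbers did not pair the samples (deviation correlations −0.0654 to 0.0718), and the replicate block gave 5292, 5654, 3884, 7438 and 6793 called genes with no member changing its call.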
